A study of Mus musculus with 6 samples.

Results

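The lysosome was examined through 47 genes, given as a list and matched by symbol to the Ensembl gene IDs of a table of 55335 genes. By role, they fall into 10 glycosidases, 5 genes of sulfatases and their activation, 6 genes of lipid breakdown, 8 cathepsins, the peptidase gene Tpp1 with the progranulin gene Grn, 6 membrane proteins, 8 subunits or accessory proteins of the proton pump, and the transcription factor genes Tfeb and Tfe3. The RNA was polyadenylated RNA of mouse sciatic nerve at postnatal day 14, in 6 libraries. The 3 icKO libraries are labelled RhoA fl/fl with ChAT-CreERT2, a tamoxifen-dependent Cre whose promoter, that of choline acetyltransferase, is active in cholinergic neurons such as motoneurons. The 3 control libraries are labelled RhoA fl/fl without Cre, so both groups carry the floxed alleles of this small GTPase. The comparison addresses how nerve transcripts differ when RhoA is targeted in motoneurons. Of the motoneurons, only the axons run in this nerve, and their cell bodies are in the spinal cord. Nearly all RNA in a nerve lysate is therefore from other cells. The labels leave out the time of Cre induction, whether control mice received the inducing drug and whether each library is a different animal, so the p-values reflect the spread among the 6 samples alone, and that spread may in part be technical. The targeted gene Rhoa had 36.4, 33.6 and 33.2 FPKM (fragments per kilobase of transcript, scaled to sequencing depth) in icKO libraries and 36.5, 39.0 and 38.0 FPKM in control libraries, and this difference did not pass the test used below (adjusted p = 0.195).

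Lysosomes digest material delivered by endocytosis, phagocytosis and autophagy. Soluble acid hydrolases inside them cut sugars, sulfate groups, lipids and proteins, the membrane proteins form a glycosylated lining and carry channels and transporters, and a proton pump of the V-ATPase type keeps the interior acidic at the cost of ATP. In nerve, lysosomes of Schwann cells and macrophages turn over myelin lipids such as galactosylceramide and sulfatide, and inherited loss of several of these enzymes in humans leads to storage disease with damage to myelin or neurons. The transcription factors TFEB and TFE3 switch on many lysosomal genes by binding a sequence called the CLEAR element, which is built around the letters CACGTG.

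Most of the lysosomal genes that differed were lower in icKO nerves. Of the 47 members, all of which passed the filter on low values, 21 fell, 4 rose and 22 did not pass (limma on log2(FPKM + 1), Benjamini-Hochberg adjusted p under 0.05 over 12860 genes). Those that fell were 44.7% of the members, and of all tested genes 22.1% fell. Those that rose were 8.51% of the members, and of all tested genes 20.8% rose. Taken in either direction, 42.9% of all tested genes passed. The median difference was -0.28 on the log2(FPKM + 1) scale over the members and -0.01 over all tested genes. The members were chosen with earlier results of these data known, so these contrasts with all genes are not an independent test. The groups did not overlap in 27 members with icKO lower and 5 with icKO higher, where 28.9% and 28.4% of all tested genes were so separated (57.2% in either direction). The largest fall was that of Hexa and the largest rise that of Ctsl.

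**Figure D1:**
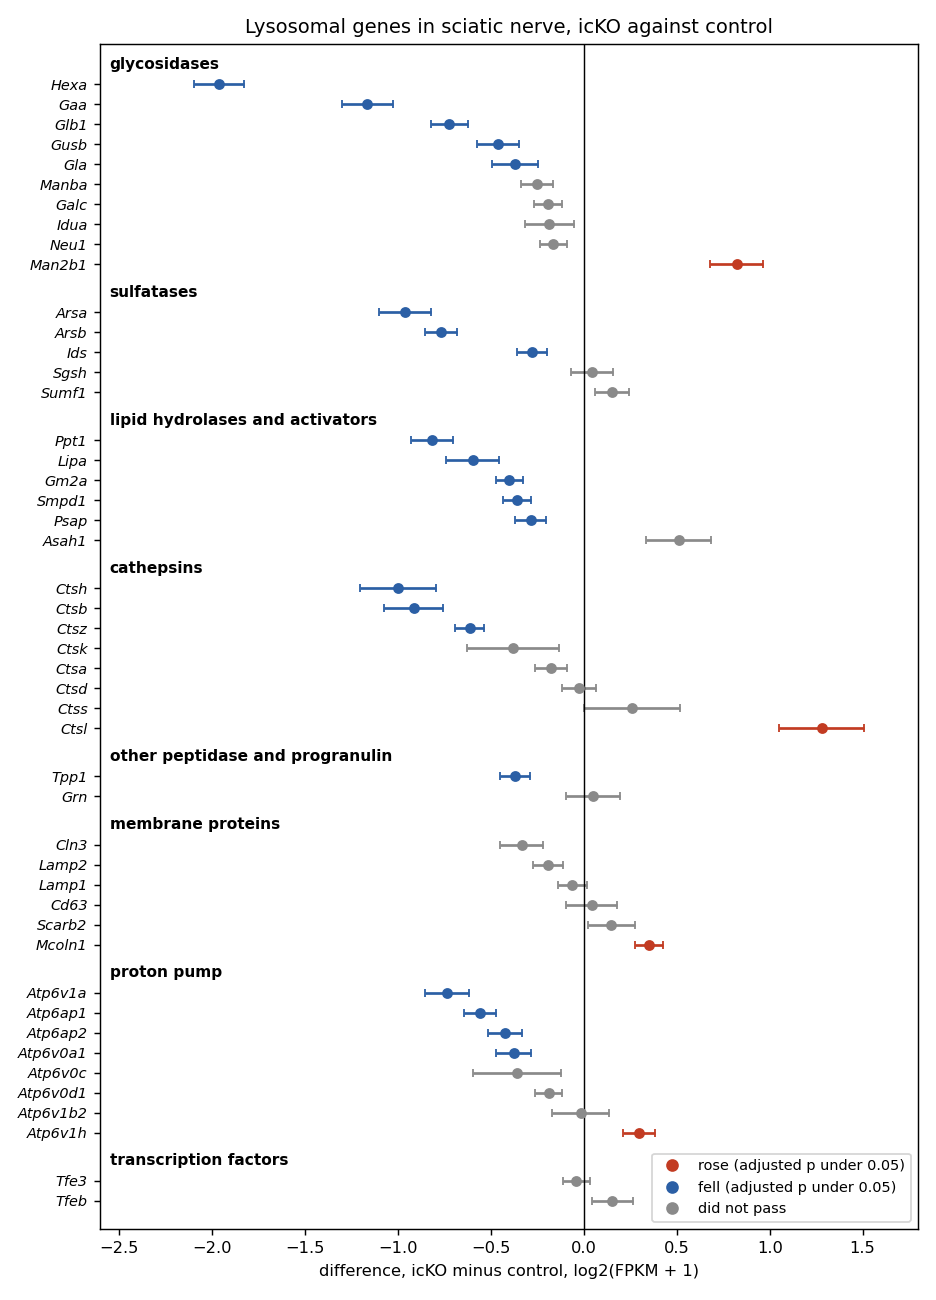
Difference of each of the 47 lysosomal genes, icKO minus control, on the log2(FPKM + 1) scale (x axis), grouped by role (y axis); points are fitted differences and bars their standard errors (n = 3 libraries per group). Blue points (21 genes) fell, red points (4 genes) rose and grey points (22 genes) did not pass an adjusted p of 0.05, and Hexa at -1.96 and Ctsl at 1.28 lie at the ends.

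In bulk RNA, fewer cells of a type and less RNA per cell cannot be told apart, and the libraries differed in several cell type markers. The marker counts are to be read beside all tested genes, of which 20.8% rose and 22.1% fell. Falls among myelinating Schwann cell markers (23.1%) and perineurial markers (20.0%) were near that share. Depth, estimated from the smallest steps of the FPKM values, was 17800000 to 19500000 fragments in icKO and 17200000 to 20600000 in control libraries. All 8 adipocyte markers fell, with a summed level of 110.0 to 220.4 FPKM in icKO and 690.0 to 776.0 FPKM in control libraries. Of 16 macrophage markers, 14 were tested and none passed. Of these, 12 were lower and 2 higher in icKO, with a median log2 difference of -0.32. Aif1 and Itgam, both below the filter, and the tested Lyz2 were lower in every icKO library than in any control library. Lyz2 was at 41.7, 41.8 and 38.8 FPKM in icKO and 44.5, 93.2 and 42.4 FPKM in control libraries. Of all tested genes 28.9% were separated with icKO lower. The summed level of the 16 markers was 153 to 158 FPKM in icKO libraries and 130 to 283 FPKM in control libraries, where control replicate 1 was low. Among 13 myelinating Schwann cell markers 1 rose and 3 fell, and of 6 markers of immature or nonmyelinating Schwann cells 3 rose and 1 fell, at a sum of 132 to 169.6 FPKM in icKO and 75.2 to 88.9 FPKM in control libraries. Of 10 fibroblast markers 1 rose and 3 fell, at a sum of 825 to 849.7 FPKM in icKO and 965 to 1897 FPKM in control libraries. Of 8 neuronal markers 7 were tested, of which 4 rose (Nefl, Nefm, Nefh and Prph) and Uchl1 fell. Nefl, a neurofilament gene, was at 12.6 ± 2.86 FPKM in icKO and 2.10 ± 0.29 FPKM in control nerves (SD, n = 3 each), and the neuronal markers summed to 48.0 to 61.8 FPKM in icKO and 47.8 to 50.9 FPKM in control libraries. These sums combine the rise of the neurofilament genes with the fall of Uchl1, the most abundant of the list. Uchl1 was at 17.5 ± 1.04 FPKM in icKO and 34.7 ± 2.10 FPKM in control nerves. Among 5 perineurial markers 1 rose and 1 fell, at a sum of 168 to 186 FPKM in icKO and 169.9 to 178 FPKM in control libraries. Of 5 tested mast cell markers Kit rose, and the other 4 (Cma1, Cpa3, Mcpt4 and Tpsb2) were lower in icKO without passing. Hdc, below the filter, was higher in every icKO library than in any control library, and Tpsb2 and Ms4a2 were lower in every one. Endothelial and mural markers (1 of 10 higher, 4 lower) summed to 154 to 194 FPKM in icKO and 233 to 296 FPKM in control libraries. Summed skeletal muscle markers ranged from 10.5 to 1518 FPKM in icKO and from 261 to 1339 FPKM in control libraries, and were highest in icKO replicate 3 and control replicate 1. Of the mast cell markers only Ms4a2 was listed at 0 in all icKO libraries, and no list had a marker at 0 in all control libraries. Chat, whose promoter drives the Cre, was listed at 0 in every library but control replicate 1 (0.012 FPKM). Control replicate 2 had 46.1 FPKM of Xist, whereas no other library exceeded 0.028 FPKM, so it alone is from a female. With the mean log2 level of macrophage markers as a covariate, 19 members fell and 5 rose, and with that of muscle markers 20 fell and 3 rose. Without icKO replicate 3 and control replicate 1, the muscle-rich libraries, 17 fell and 4 rose. The mean log2 macrophage level was 3.085, 3.058 and 3.046 in icKO libraries and 2.713, 3.702 and 3.502 in control libraries. That covariate thus rests mainly on the control libraries. With 6 libraries, neither covariate fit can separate cell content from expression. The part of macrophage and muscle content in these differences was therefore not settled. That of the adipocyte, fibroblast, endothelial, Schwann cell, neuronal, perineurial and mast cell markers was not tested.

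Promoters of 42 of the 47 members were found in the RefSeq table (build GRCm38.p6), each as a window of 300 bases, 250 before the gene's start and 50 after it, and some genes have several starts. At least 1 window held CACGTG in 14 of these 42 genes (33.3%), against 8.09% of all 27025 genes with a window and 7.15% of all 32851 windows. The longer GTCACGTG, searched on both strands and containing CACGTG, was present in 11 of 42 members (26.2%), against 2.55% of all genes and 2.25% of all windows. The full palindrome, GTCAC followed by its reverse complement, was found in 1 member, Cln3, and in 0.326% of all windows. CACGTG was in 5 of 19 members that fell, 2 of 3 that rose and 7 of 20 that did not pass. Windows are shown for the largest fall (Hexa), for a glycosidase that fell and holds the element (Glb1), for the largest rise (Ctsl), for the calcium channel gene Mcoln1 that rose, for the catalytic pump subunit Atp6v1a that fell, and for the full palindrome in Cln3. Capitals mark GTCACGTG or its reverse complement where present and otherwise CACGTG.
Hexa, chr9:59539290-59539589, strand plus: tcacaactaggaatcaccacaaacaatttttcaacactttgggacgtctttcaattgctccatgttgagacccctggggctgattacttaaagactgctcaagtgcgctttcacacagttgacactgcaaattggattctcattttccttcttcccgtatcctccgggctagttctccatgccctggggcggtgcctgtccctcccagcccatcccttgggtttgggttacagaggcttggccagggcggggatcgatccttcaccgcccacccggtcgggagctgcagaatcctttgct
Glb1, chr9:114400828-114401127, strand plus: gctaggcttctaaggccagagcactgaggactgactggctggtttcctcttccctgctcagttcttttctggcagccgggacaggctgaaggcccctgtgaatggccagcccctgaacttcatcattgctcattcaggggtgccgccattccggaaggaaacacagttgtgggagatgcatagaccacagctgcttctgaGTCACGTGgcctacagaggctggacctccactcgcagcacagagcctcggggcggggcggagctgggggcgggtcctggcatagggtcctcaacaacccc
Ctsl, chr13:64370471-64370770, strand minus: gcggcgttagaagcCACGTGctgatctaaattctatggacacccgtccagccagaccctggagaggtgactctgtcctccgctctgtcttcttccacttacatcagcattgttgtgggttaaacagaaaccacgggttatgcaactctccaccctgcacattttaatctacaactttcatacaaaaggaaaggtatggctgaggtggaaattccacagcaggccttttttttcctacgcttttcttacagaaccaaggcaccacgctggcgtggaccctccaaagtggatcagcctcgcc
Mcoln1, chr8:3500269-3500568, strand plus: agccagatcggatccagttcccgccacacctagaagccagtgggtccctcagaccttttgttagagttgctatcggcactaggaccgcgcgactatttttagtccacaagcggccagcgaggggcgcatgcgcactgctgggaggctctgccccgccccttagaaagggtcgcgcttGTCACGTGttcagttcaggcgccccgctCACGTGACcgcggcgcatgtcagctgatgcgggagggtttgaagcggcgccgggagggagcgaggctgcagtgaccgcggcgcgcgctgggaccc
Atp6v1a, chr16:44139210-44139509, strand minus: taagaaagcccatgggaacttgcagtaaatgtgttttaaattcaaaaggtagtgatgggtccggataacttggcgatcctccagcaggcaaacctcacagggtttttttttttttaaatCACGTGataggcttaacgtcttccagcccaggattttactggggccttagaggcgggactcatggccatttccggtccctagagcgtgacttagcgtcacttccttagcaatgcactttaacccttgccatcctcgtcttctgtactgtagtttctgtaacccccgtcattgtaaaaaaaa
Cln3, chr7:126583187-126583486, strand minus: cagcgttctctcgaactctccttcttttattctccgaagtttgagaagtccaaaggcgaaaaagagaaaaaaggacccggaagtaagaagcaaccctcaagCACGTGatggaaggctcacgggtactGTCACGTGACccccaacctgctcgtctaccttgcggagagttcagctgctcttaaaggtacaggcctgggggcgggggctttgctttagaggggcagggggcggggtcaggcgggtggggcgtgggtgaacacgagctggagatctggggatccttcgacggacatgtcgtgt
The Hexa window holds none of these letters. In Glb1 the CACGTG begins 48 bases before the gene's start, in Atp6v1a 131 bases before it and in Ctsl 236 bases before it. Mcoln1 has copies that begin 71 and 45 bases before its start, and Cln3 has copies 149 and 121 bases before the start shown. A match describes the letters only, and nothing was measured here about binding of TFEB or TFE3.

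Tfeb and Tfe3 themselves did not pass. Tfeb was at 5.66, 5.03 and 6.83 FPKM in icKO libraries and at 5.04, 5.43 and 4.88 FPKM in control libraries, a log2 difference of 0.15 (SE 0.11, adjusted p = 0.301 by limma with Benjamini-Hochberg correction). Tfe3 was at 5.55, 5.11 and 5.19 FPKM in icKO and at 5.35, 5.31 and 5.71 FPKM in control libraries, a log2 difference of -0.04 (SE 0.07, adjusted p = 0.695). The groups overlapped in both genes, and neither passed under any of 20 alternative settings. Both factors are known to be controlled mainly by phosphorylation and movement into the nucleus, which transcript levels do not show.

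Glycosidases release sugars from glycolipids, glycoproteins and glycogen. Of 10, 5 fell (Hexa, Gaa, Glb1, Gusb and Gla), Man2b1 rose and 4 did not pass (Manba, the beta-mannosidase gene, Neu1, Galc and Idua), with a median log2 difference of -0.31. Hexa (ENSMUSG00000025232) encodes the alpha subunit of beta-hexosaminidase A, which breaks down GM2 ganglioside and whose loss causes Tay-Sachs disease in humans. Its level was 13.9, 10.2 and 11.3 FPKM in icKO libraries and 43.0, 52.0 and 51.4 FPKM in control libraries. Every icKO library lay below every control library, and the mean in icKO nerves was 0.24 times that in control nerves, with a log2 difference of -1.96 (SE 0.13, adjusted p = 0.000404 by limma with Benjamini-Hochberg correction).

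Gaa (ENSMUSG00000025579), the acid alpha-glucosidase that degrades glycogen in lysosomes, was at 9.11, 7.50 and 8.54 FPKM in icKO libraries and 19.8, 23.8 and 16.9 FPKM in control libraries. The groups were far apart, with a log2 difference of -1.16 (SE 0.14, adjusted p = 0.0014 by limma with Benjamini-Hochberg correction). Glb1 (ENSMUSG00000045594), the acid beta-galactosidase, was at 7.45, 6.57 and 6.09 FPKM in icKO and 10.8, 12.8 and 11.5 FPKM in control libraries, with a log2 difference of -0.72 (SE 0.10, adjusted p = 0.00239). Man2b1 (ENSMUSG00000005142), the lysosomal alpha-mannosidase, went the other way, at 10.9, 12.5 and 10.8 FPKM in icKO and 4.76, 7.24 and 6.23 FPKM in control libraries. All icKO libraries lay above all control libraries, with a log2 difference of 0.82 (SE 0.14, adjusted p = 0.00503). These genes passed in all 20 alternatives. The mannosidase gene Man2b2, outside the 47, fell to 11.6 ± 0.91 FPKM in icKO nerves, against 20.9 ± 1.49 FPKM in control nerves (SD, n = 3 each), so the mannosidase genes did not move one way.

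The smaller changes among the glycosidases were less stable. Gusb, the beta-glucuronidase gene, was at 5.40 ± 0.49 FPKM in icKO and 7.84 ± 1.06 FPKM in control nerves (SD, n = 3 each; adjusted p = 0.018, limma with Benjamini-Hochberg correction). Its call was lost without icKO replicate 2 or without control replicate 2 or 3 (adjusted p = 0.0518, 0.062 and 0.0631). Gla, the alpha-galactosidase A gene, was at 1.60 ± 0.38 FPKM in icKO and 2.35 ± 0.15 FPKM in control nerves, close to the filter, with an adjusted p of 0.0478. Its call held without icKO replicate 3 but not without icKO replicate 1 or 2 or control replicate 1, 2 or 3 (adjusted p = 0.12, 0.121, 0.092, 0.0967 and 0.143), nor without a filter (0.102), with quantile scaling (0.0555) or with the muscle or macrophage covariate (0.137 and 0.0921). Galc, the enzyme of galactosylceramide breakdown, was at 3.87 ± 0.21 and Neu1, the sialidase, at 10.2 ± 0.36 FPKM in icKO nerves, against 4.57 ± 0.09 and 11.6 ± 0.51 FPKM in control nerves. In Galc, Neu1 and Manba the groups did not overlap although the adjusted p was 0.0761, 0.118 and 0.0568. Idua, an enzyme of dermatan and heparan sulfate breakdown, was the lowest of the 47 members with a mean of 1.87 FPKM over the 6 libraries, and its groups overlapped (adjusted p = 0.289).

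**Figure D2:**
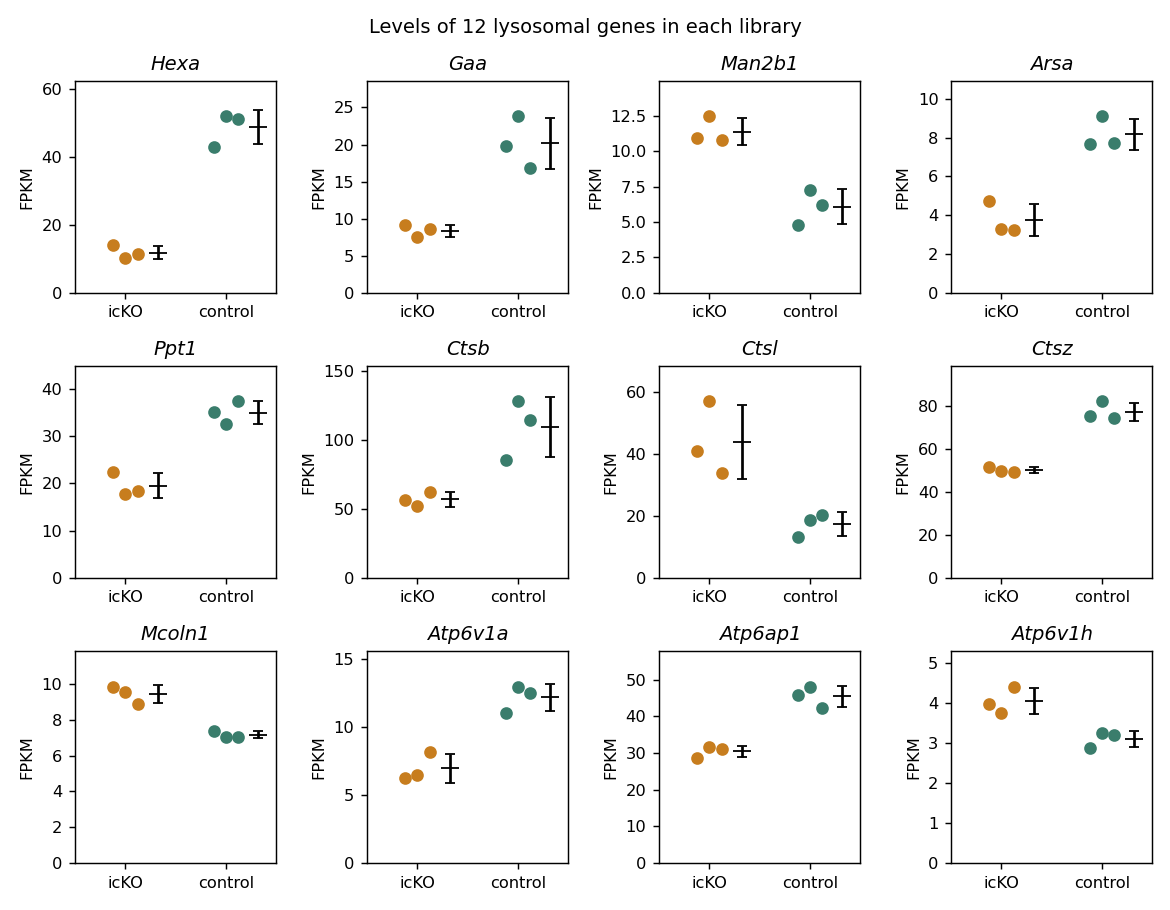
FPKM of 12 lysosomal genes in each library (y axes, each from 0), with the icKO libraries left and the control libraries right; points are single libraries, and bars are the mean and SD (n = 3 each). The 12 were picked from the called members, so their separation does not describe the 47. Groups do not overlap in any of the 12, where 57.2% of all tested genes were so separated. Man2b1, Ctsl, Mcoln1 and Atp6v1h are the genes with icKO above control.

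Among the 5 genes of sulfatases and their activation 3 fell and none rose, where 22.1% of all tested genes fell and 20.8% rose. Arsa (ENSMUSG00000022620) encodes arylsulfatase A, which removes sulfate from the myelin lipid sulfatide and is deficient in human metachromatic leukodystrophy. Its level was 4.71, 3.30 and 3.21 FPKM in icKO libraries and 7.68, 9.10 and 7.73 FPKM in control libraries, with a log2 difference of -0.96 (SE 0.14, adjusted p = 0.00276 by limma with Benjamini-Hochberg correction). Arsb, arylsulfatase B of dermatan sulfate breakdown, was at 5.07, 5.06 and 5.61 FPKM in icKO and 8.86, 10.1 and 10.0 FPKM in control libraries, with a log2 difference of -0.77 (SE 0.08, adjusted p = 0.00119). In both genes the icKO libraries lay well below the control libraries, and both passed in all 20 alternatives. Ids, iduronate sulfatase, was the most abundant of the class, at 36.1, 39.4 and 34.1 FPKM in icKO and 45.0, 43.7 and 44.7 FPKM in control libraries. This fall was small, with a log2 difference of -0.28 (SE 0.08, adjusted p = 0.0315). Its call was lost without icKO replicate 1 or 3 (adjusted p = 0.0776 and 0.0601), without control replicate 1, 2 or 3 (0.0826, 0.0847 and 0.0996), without the muscle-rich libraries (0.117), with median-of-ratios or quantile scaling (0.0731 and 0.0689) and with the macrophage covariate (0.0656). Sumf1, the enzyme of the endoplasmic reticulum that activates all sulfatases, was at 9.71, 8.75 and 10.8 FPKM in icKO and 8.36, 8.73 and 8.90 FPKM in control libraries and did not pass (log2 difference 0.15, SE 0.09, adjusted p = 0.227). Sgsh, the sulfatase of heparan sulfate, was at 4.63 ± 0.19 and 4.50 ± 0.72 FPKM in icKO and control nerves (SD, n = 3 each; adjusted p = 0.778).

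Genes of lipid breakdown fell in 5 of 6 cases, where 22.1% of all tested genes fell. Ppt1 (ENSMUSG00000028657), a thioesterase that removes fatty acids from proteins, was at 22.5, 17.8 and 18.3 FPKM in icKO libraries and 35.1, 32.5 and 37.4 FPKM in control libraries. Its log2 difference was -0.81 (SE 0.11, adjusted p = 0.00228 by limma with Benjamini-Hochberg correction). Gm2a, the activator protein that presents GM2 ganglioside to the Hexa product, was at 29.2, 29.7 and 27.7 FPKM in icKO and 37.4, 39.7 and 38.3 FPKM in control libraries (log2 difference -0.40, SE 0.07, adjusted p = 0.00578). Smpd1, the acid sphingomyelinase, was at 17.4, 17.8 and 16.1 FPKM in icKO and 22.2, 22.1 and 22.4 FPKM in control libraries (log2 difference -0.36, SE 0.07, adjusted p = 0.00935). The spread within groups was small in both genes, and these 3 genes passed in all 20 alternatives. Lipa, the acid lipase that frees cholesterol and fatty acids from their esters, was at 11.4, 14.2 and 9.40 FPKM in icKO and 18.1, 18.8 and 17.0 FPKM in control libraries. Its log2 difference was -0.60 (SE 0.14, adjusted p = 0.0159), and it did not pass without control replicate 2 (0.0549) or without the muscle-rich libraries (0.053).

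Psap, the precursor of the saposins that assist sphingolipid hydrolases, was the most abundant member, at 387, 378 and 359 FPKM in icKO libraries and 447, 483 and 442 FPKM in control libraries. The groups did not overlap (log2 difference -0.29, SE 0.08, adjusted p = 0.0313 by limma with Benjamini-Hochberg correction), but the call was lost whichever single library was left out. The adjusted p was then 0.0628, 0.0553 and 0.0672 without icKO replicate 1, 2 or 3 and 0.0598, 0.106 and 0.0754 without control replicate 1, 2 or 3. It was 0.0938 without the muscle-rich libraries, 0.113 without a filter, 0.0648 with median-of-ratios scaling and 0.0707 with the macrophage covariate. Asah1, the acid ceramidase, was the one gene of the class with a higher level in icKO nerves, at 90.6, 102.5 and 69.4 FPKM in icKO and 66.2, 65.8 and 50.3 FPKM in control libraries. The groups did not overlap, and the adjusted p was 0.0526. Asah1 passed without icKO replicate 3 (adjusted p = 0.0171), without the muscle-rich libraries (0.0246), with quantile scaling (0.0421) and with array weights (0.0251).

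The 8 cathepsins, lysosomal proteases named by letter, moved in both directions. Ctsb, Ctsh and Ctsz fell, Ctsl rose, and Ctsa, Ctsd, Ctsk and Ctss did not pass, with a median log2 difference of -0.28. Ctsl (ENSMUSG00000021477), cathepsin L, a cysteine endopeptidase, was at 41.0, 57.1 and 33.8 FPKM in icKO libraries and 13.1, 18.8 and 20.2 FPKM in control libraries. Its mean in icKO nerves was 2.53 times that in control nerves, and every icKO library exceeded every control library (log2 difference 1.28, SE 0.23, adjusted p = 0.00552 by limma with Benjamini-Hochberg correction). Ctsb (ENSMUSG00000021939), cathepsin B, also a cysteine protease, was at 56.2, 51.8 and 62.3 FPKM in icKO and 85.5, 128 and 114 FPKM in control libraries. It fell by 0.92 on the log2 scale (SE 0.16, adjusted p = 0.00508). The level of Ctsb relative to Ctsl was 1.37, 0.91 and 1.85 in icKO libraries, against 6.52, 6.80 and 5.65 in control libraries, a ratio chosen after its values were seen. Both genes passed in all 20 alternatives.

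Ctsz, a carboxypeptidase of the cysteine type, was at 51.5, 49.8 and 49.1 FPKM in icKO libraries and 75.4, 82.1 and 74.6 FPKM in control libraries, with a narrow spread (log2 difference -0.61, SE 0.08, adjusted p = 0.0017 by limma with Benjamini-Hochberg correction). Ctsh, an aminopeptidase, was at 2.87, 2.43 and 2.48 FPKM in icKO and 4.12, 7.59 and 7.36 FPKM in control libraries (log2 difference -0.998, SE 0.20, adjusted p = 0.00906). Control replicate 1, the control library lowest in macrophage markers, was also the lowest control library for Ctsb, Ctsh, Ctsk, Ctss and Ctsl. Without it the log2 difference of Ctsb was -1.08, and that of Ctsl, which rose, was 1.10 (adjusted p = 0.0145). Ctss, a cathepsin of antigen-presenting cells, was at 13.0, 11.5 and 14.0 FPKM in icKO and 6.74, 15.4 and 10.9 FPKM in control libraries, and Ctsk, a collagen-degrading cathepsin, at 15.2, 18.2 and 20.6 against 15.6, 30.9 and 26.9 FPKM. The groups overlapped in both (adjusted p = 0.445 and 0.253). Ctsk passed as lower when control replicate 1 was left out (0.0204) or both muscle-rich libraries were (0.0139), and Ctss passed as higher with the macrophage covariate (0.0283). Ctsd, the main aspartic protease and the third most abundant member, was at 206 ± 18.1 FPKM in icKO and 209 ± 4.71 FPKM in control nerves (SD, n = 3 each; adjusted p = 0.847). Ctsa, a serine carboxypeptidase that shields the Glb1 and Neu1 products in a complex, was at 32.3 ± 1.93 and 36.6 ± 2.46 FPKM in icKO and control nerves (adjusted p = 0.147).

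Of the other soluble proteins, Tpp1, a tripeptidyl peptidase, was at 14.6, 12.8 and 13.1 FPKM in icKO libraries and 18.1, 17.6 and 17.5 FPKM in control libraries and fell (log2 difference -0.37, SE 0.08, adjusted p = 0.0105 by limma with Benjamini-Hochberg correction). It did not pass without the muscle-rich libraries (adjusted p = 0.0543). Grn, the precursor of the granulins, was at 31.6, 32.5 and 24.1 FPKM in icKO and 24.3, 31.2 and 29.4 FPKM in control libraries, with overlapping groups (log2 difference 0.05, SE 0.15, adjusted p = 0.807).

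Of the 6 membrane proteins 1 rose and 5 did not pass, where 20.8% of all tested genes rose and 22.1% fell. Their log2 differences ran from -0.33 to 0.35, with 3 negative and 3 positive (median -0.01). Mcoln1 (ENSMUSG00000004567), the channel that releases calcium from lysosomes, rose, at 9.85, 9.54 and 8.88 FPKM in icKO libraries and 7.39, 7.05 and 7.05 FPKM in control libraries. The groups did not overlap (log2 difference 0.35, SE 0.07, adjusted p = 0.0105 by limma with Benjamini-Hochberg correction), and the gene passed in all 20 alternatives. Cln3, a membrane protein whose loss causes a childhood neuronal storage disease in humans, was at 2.46, 2.97 and 2.32 FPKM in icKO and 4.02, 3.47 and 3.06 FPKM in control libraries. It missed the threshold (log2 difference -0.33, SE 0.12, adjusted p = 0.0559) and passed without icKO replicate 2 (0.0428) and with the macrophage covariate (0.0499). Lamp2, a main lining protein and receptor of chaperone-mediated autophagy, was at 21.9, 22.6 and 24.2 FPKM in icKO and 24.8, 26.4 and 27.8 FPKM in control libraries (log2 difference -0.19, SE 0.08, adjusted p = 0.0967). Lamp1, the other main lining protein and the second most abundant member, was at 328 ± 6.63 FPKM in icKO and 343 ± 12.5 FPKM in control nerves (SD, n = 3 each; adjusted p = 0.552). Scarb2, which carries the glucosylceramidase to lysosomes, was at 28.6, 29.5 and 37.2 FPKM in icKO and 26.3, 27.6 and 31.6 FPKM in control libraries (log2 difference 0.15, SE 0.13, adjusted p = 0.38). Cd63, a tetraspanin, was at 37.4 ± 5.48 and 36.2 ± 4.66 FPKM in icKO and control nerves (adjusted p = 0.824). Its annotated pseudogene copy was listed at 14.7 ± 2.58 and 15.8 ± 1.71 FPKM, so fragments may be split between them.

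The proton pump has a V1 part in the cytosol that splits ATP and a V0 part in the membrane that passes protons. Of its 8 members 4 fell, 3 did not pass and Atp6v1h rose, and the median log2 difference was -0.37. Atp6v1a (ENSMUSG00000052459), the catalytic subunit of V1, was at 6.24, 6.45 and 8.17 FPKM in icKO libraries and 11.1, 13.0 and 12.5 FPKM in control libraries (log2 difference -0.73, SE 0.12, adjusted p = 0.00379 by limma with Benjamini-Hochberg correction). Atp6ap1, an accessory protein of V0 assembly, was at 28.8, 31.6 and 31.1 FPKM in icKO and 45.9, 48.1 and 42.3 FPKM in control libraries (log2 difference -0.56, SE 0.08, adjusted p = 0.00312). Atp6ap2, an accessory protein also known as the prorenin receptor, was at 22.7, 22.8 and 26.4 FPKM in icKO and 30.7, 33.9 and 32.9 FPKM in control libraries (log2 difference -0.42, SE 0.09, adjusted p = 0.0107). In each of these 3 genes the icKO libraries lay below the control libraries, and each passed in all 20 alternatives. Atp6v0a1, the large V0 subunit, was at 6.59, 8.19 and 6.89 FPKM in icKO and 9.45, 9.96 and 9.53 FPKM in control libraries (log2 difference -0.38, SE 0.09, adjusted p = 0.0186). This call was lost without icKO replicate 1 (0.0522), control replicate 2 or 3 (0.0688 and 0.0597) or the muscle-rich libraries (0.0758).

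Atp6v1h, a regulatory subunit of V1, was at 3.98, 3.74 and 4.40 FPKM in icKO libraries and 2.87, 3.24 and 3.19 FPKM in control libraries (log2 difference 0.30, SE 0.09, adjusted p = 0.0328 by limma with Benjamini-Hochberg correction). It held its call without icKO replicate 2 but lost it without icKO replicate 1 or 3 (adjusted p = 0.0657 and 0.0728), control replicate 1, 2 or 3 (0.0934, 0.074 and 0.0839) or the muscle-rich libraries (0.142). It also missed the threshold without a filter (0.0624) and with the muscle covariate (0.0552). Atp6v0d1, a V0 subunit that links to the rotor, did not pass at 44.9 ± 1.06 FPKM in icKO and 51.4 ± 2.22 FPKM in control nerves (SD, n = 3 each; adjusted p = 0.0793), although the groups did not overlap. Atp6v1b2, the V1 subunit beside the catalytic one, was at 15.6 ± 3.77 and 15.5 ± 0.40 FPKM in icKO and control nerves (adjusted p = 0.938). Atp6v0c, the proteolipid of the V0 ring, was at 26.1, 24.3 and 31.5 FPKM in icKO and 29.6, 28.2 and 51.6 FPKM in control libraries, and control replicate 3 stood apart (adjusted p = 0.255). An annotated pseudogene of Atp6v0c was listed at 37.0 ± 3.17 and 42.4 ± 1.07 FPKM in icKO and control nerves, so the level of the parent gene is uncertain.

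Set against each other, the glycosidases, cathepsins and proton pump subunits had median differences of -0.31, -0.28 and -0.37 on the log2(FPKM + 1) scale, and no difference between the classes was tested. With a filter of at least 5 FPKM these medians were -0.59, -0.18 and -0.38. The cathepsin median was -0.17 without control replicate 2 and -0.18 with the macrophage covariate. Members that fell were 5 of 10, 3 of 8 and 4 of 8, and each class had 1 member that rose, where 22.1% of all tested genes fell and 20.8% rose. Single glycosidases ran from -1.96 to 0.82, cathepsins from -0.998 to 1.28 and pump subunits from -0.73 to 0.30. The summed level of the 10 glycosidases was 63.0 ± 3.16 FPKM in icKO nerves and 118 ± 10.1 FPKM in control nerves (SD, n = 3 each). Without Hexa the sum of the other 9 was 51.2 ± 1.37 FPKM in icKO and 68.8 ± 6.05 FPKM in control nerves. The 8 cathepsins summed to 422 ± 21.8 FPKM in icKO and 491 ± 43.5 FPKM in control nerves, and the pump genes to 160 ± 11.3 and 206 ± 9.62 FPKM. For the membrane proteins, carried by Lamp1, the sums were 432 ± 6.07 and 444 ± 4.89 FPKM. Without Lamp1 the other 5 summed to 104 ± 10.6 FPKM in icKO and 102 ± 7.95 FPKM in control nerves, with overlapping groups. Without Psap the other 5 lipid genes summed to 165 ± 21.3 and 174 ± 7.77 FPKM, also overlapping. Without Ctsd the other 7 cathepsins summed to 217 ± 6.08 and 282 ± 40.9 FPKM, and the groups stayed apart. All 47 members held 0.623%, 0.662% and 0.624% of the summed FPKM of the icKO libraries, against 0.727%, 0.788% and 0.716% in the control libraries.

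**Figure D3:**
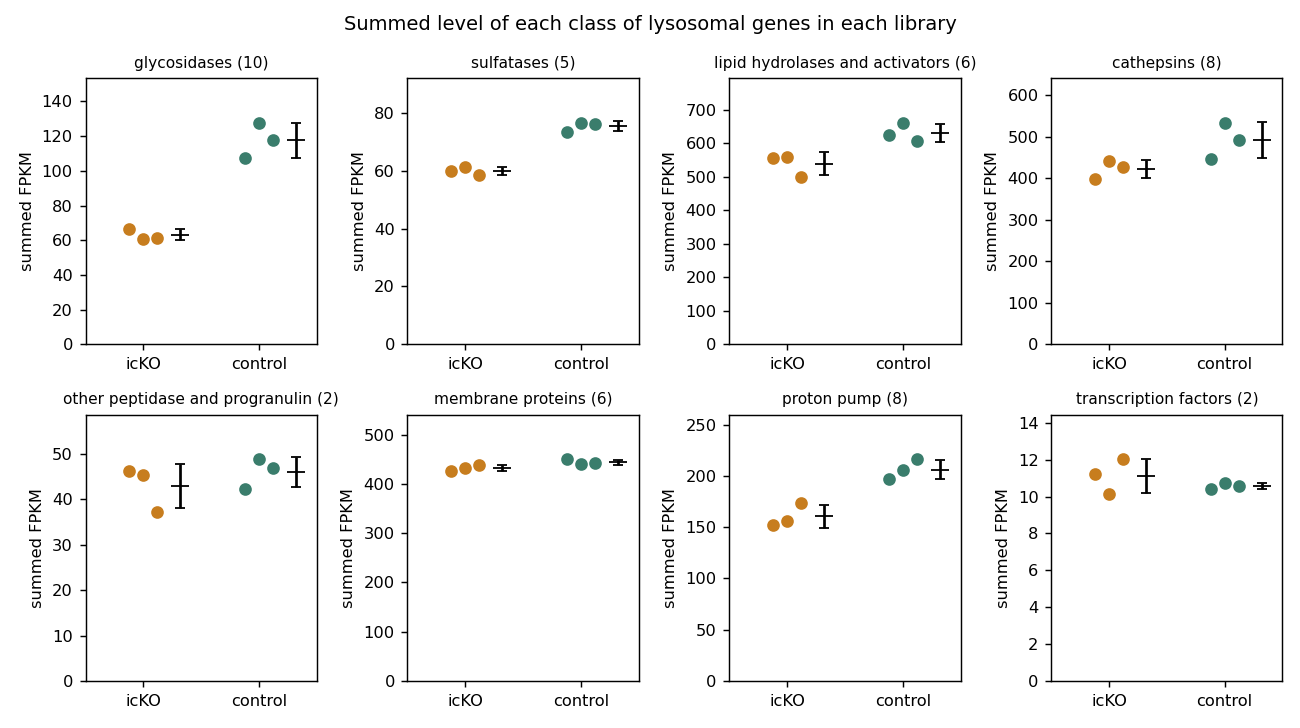
Summed FPKM of the members of each class (y axes, each from 0; number of genes in brackets) in each library, with icKO left and control right; points are libraries, and bars are the mean and SD (n = 3 each). The icKO sums lie below all control sums for glycosidases (60.9 to 66.7 against 108 to 128 FPKM). The same holds for sulfatases, lipid genes, cathepsins, membrane proteins and the proton pump. Without Psap the sums of the other lipid genes overlap, and without Lamp1 those of the other membrane proteins do. The groups overlap for Tpp1 with Grn and for the transcription factors.

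Of the 47 genes, 6 lie on the X chromosome (Gla, Ids, Lamp2, Atp6ap1, Atp6ap2 and Tfe3), and control replicate 2 was the female library. Without it Atp6ap1 and Atp6ap2 still fell (log2 differences of -0.52 and -0.39, limma, Benjamini-Hochberg adjusted p = 0.0165 and 0.0456), while Gla and Ids did not pass. Exons of some members overlap those of a neighbour on the opposite strand, and the handling of strand is not given in the sources used here. For Ctsb this is Fdft1, a cholesterol synthesis gene at 24.8 FPKM in icKO and 52.1 FPKM in control nerves on average, and for Ppt1 it is Cap1, at 35.8 and 54.4 FPKM. For Ctsa it is Pltp, at 10.2 and 24.2 FPKM. These neighbours were also lower in icKO nerves, and fragments shared with them cannot be told apart from those of Ctsb, Ppt1 and Ctsa. For Hexa, whose fall was the largest, the overlapping Tmem202 was at 1.03 and 0.78 FPKM in icKO and control nerves. Glb1 overlaps Tmppe on the same strand, at 1.74 and 1.56 FPKM. Idua, at 1.69 and 2.05 FPKM, overlaps Dgkq (1.97 and 1.65 FPKM) and Slc26a1 (0.30 and 1.41 FPKM) on the opposite strand.

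A further 71 genes of the lysosome, its delivery routes and its regulators were read from the same fit. Of these, 23 fell, 37 did not pass and 11 rose, where 22.1% of all tested genes fell and 20.8% rose. Their median log2 difference was -0.08. Their falls were thus 32.4% of the list, a smaller share than among the 47, and a difference between the lists was not tested. The counts of each list below are to be read beside the same shares of all tested genes. Of 9 other glycosidases and sulfatases 4 fell and none rose, led by Aga, which cleaves the link between sugar and asparagine, at 4.44 ± 0.15 FPKM in icKO and 8.47 ± 0.13 FPKM in control nerves (SD, n = 3 each; adjusted p = 0.000703, limma with Benjamini-Hochberg correction). Of 7 genes of lipid handling 4 fell, led by Naaa, an acid amidase of fatty acid ethanolamides. It was at 2.59, 2.26 and 2.21 FPKM in icKO and 8.74, 8.73 and 8.81 FPKM in control libraries, with a log2 difference of -1.54 (SE 0.08, adjusted p = 0.000262). Npc2, which moves cholesterol out of lysosomes together with the Npc1 product, fell to 29.8 ± 3.26 FPKM in icKO nerves, against 50.3 ± 3.03 FPKM in control nerves, while Npc1 was at 18.9 ± 2.10 and 15.6 ± 0.87 FPKM (adjusted p = 0.0821).

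Among 8 other proteases 4 fell and 2 rose. Prcp, a prolyl carboxypeptidase, was at 2.27 ± 0.33 FPKM in icKO and 5.53 ± 0.48 FPKM in control nerves (SD, n = 3 each; adjusted p = 0.0011, limma with Benjamini-Hochberg correction). Lgmn, the legumain gene, whose product processes several cathepsins, was at 35.6, 36.1 and 35.9 FPKM in icKO and 15.6, 24.5 and 20.0 FPKM in control libraries and rose (log2 difference 0.83, SE 0.15, adjusted p = 0.00622). The other riser was Ctsf, cathepsin F, at 13.0 ± 2.28 and 6.39 ± 1.71 FPKM. Of 11 further pump subunits 3 fell (Atp6v1f, Atp6v1d and Atp6v0e2) and none rose. Atp6v1f was at 29.8 ± 2.55 FPKM in icKO and 44.9 ± 1.35 FPKM in control nerves (adjusted p = 0.00303), and Atp6v0a2, the one with a higher level, did not pass (adjusted p = 0.277).

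Other membrane proteins and channels split, with 4 of 14 higher and 3 lower. Slc38a9, an amino acid transporter that reports arginine to mTORC1, was at 3.91, 4.84 and 3.43 FPKM in icKO libraries and 1.72, 1.73 and 1.60 FPKM in control libraries (log2 difference 0.91, SE 0.12, adjusted p = 0.00187 by limma with Benjamini-Hochberg correction). Ostm1, Tmem192 and Slc17a5 also rose, and Mfsd8, Tpcn1 and Laptm4a fell, with Mfsd8 at 1.83 ± 0.32 FPKM in icKO and 3.14 ± 0.22 FPKM in control nerves (SD, n = 3 each; adjusted p = 0.00786). Of 10 genes that tag or carry hydrolases to the lysosome 3 fell (Sort1, M6pr and Gga2) and Gnptg rose. Sort1, the sorting receptor sortilin, was at 22.4 ± 1.59 FPKM in icKO and 33.5 ± 1.84 FPKM in control nerves (adjusted p = 0.00336), and Gnptg, a subunit of the enzyme that makes the mannose phosphate tag, at 27.3 ± 1.28 and 22.5 ± 1.41 FPKM (adjusted p = 0.0381).

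Of 12 genes that control Tfeb and Tfe3 or relate to them, 4 rose and 2 fell. Flcn, folliculin, was at 16.7, 22.3 and 14.5 FPKM in icKO libraries and 8.67, 7.70 and 7.58 FPKM in control libraries (log2 difference 1.05, SE 0.15, adjusted p = 0.0029 by limma with Benjamini-Hochberg correction). Its partners Fnip1 and Fnip2 were at 6.87 ± 0.50 and 4.63 ± 0.63 FPKM in icKO nerves, against 4.42 ± 0.28 and 2.86 ± 0.08 FPKM in control nerves (SD, n = 3 each). Rragc, the small GTPase on which they act, was at 35.2 ± 2.78 FPKM in icKO and 23.6 ± 2.07 FPKM in control nerves. All 3 rose (adjusted p = 0.0037, 0.00659 and 0.00551), and their icKO libraries lay above all control libraries. Ppp3cb, a catalytic subunit of calcineurin, which dephosphorylates TFEB, was at 3.53, 4.08 and 4.49 FPKM in icKO and 8.42, 8.93 and 4.99 FPKM in control libraries (adjusted p = 0.0275), and Mitf, a relative of Tfeb, also fell (adjusted p = 0.0283). Genes named here beyond the smallest p in each direction of a list were chosen after their values were seen.

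**Figure D4:**
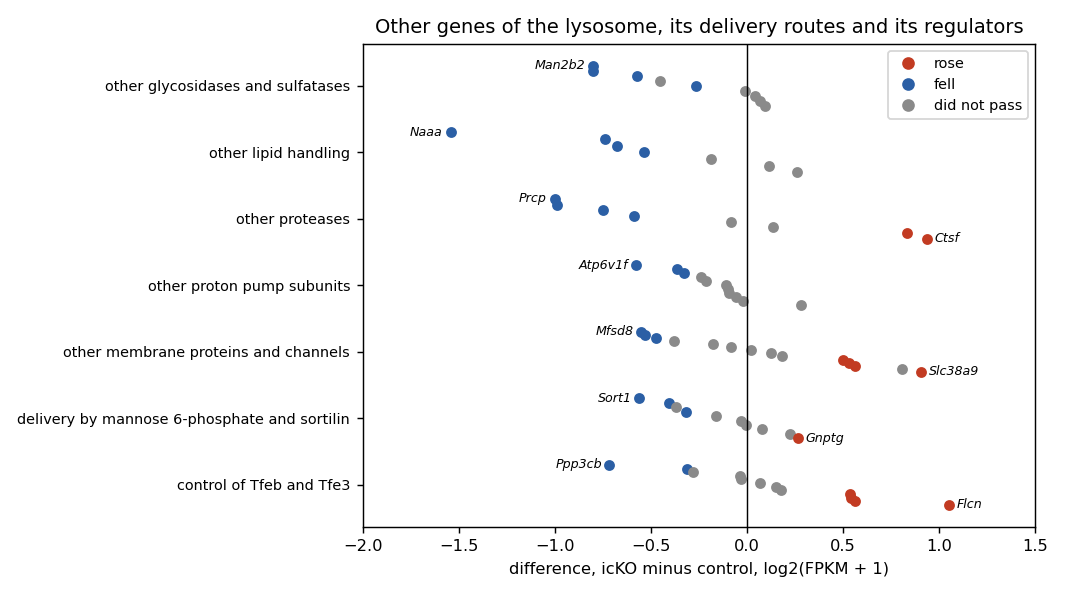
Difference, icKO minus control, on the log2(FPKM + 1) scale (x axis) of 71 further genes in 7 lists (y axis); each point is a gene, coloured by whether it rose, fell or did not pass an adjusted p of 0.05, and the lowest and highest gene of each list are named where they passed. Naaa at -1.54 is the lowest and Flcn at 1.05 the highest.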

How the data were processed

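The deposited table holds FPKM per gene, made by the authors, for 55335 genes in 6 libraries, and each column matched 1 sample by name. The submitters' processing notes name STAR, StringTie 1.3.1c, FastQC 0.11.2, DESeq2 1.16.1 and GRCm39 without their roles. The sources used here state neither annotation, strand handling nor treatment of multiply mapped reads. FPKM is relative to library total and transcript length, so abundant transcripts lower all others. Symbols (55154 IDs), lengths and exon overlaps came from GENCODE M21 on GRCm38. Depth was estimated from the FPKM steps of genes with 1 transcript.

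A mean of 1 FPKM or more over the 6 libraries was required, and 12860 genes were tested on log2(FPKM + 1), a scale that understates changes of low genes. The test was limma 3.58.1 in R 4.3.3, two-sided, with a variance trend, Benjamini-Hochberg adjustment and calls at an adjusted p under 0.05, tested on simulated data. "Rose" and "fell" mean such calls in icKO relative to control. The members and lists were chosen with earlier results of these data known. Full values are given for the 4 genes with the smallest p in each class, for called genes against their class, and for Tfeb and Tfe3, and each further list is represented by the smallest p in each direction. Some further genes of these lists are not reported here. Alternatives were other pseudocounts, filters, scalings, variance and weight options, a replicate block, covariates and left-out libraries.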

Additional observations from a re-analysis of the deposited data

How the results depend on the processing

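The number of all genes called was 5516, with 3308 at a filter of at least 5 FPKM (fewer genes tested, 6888) and 3728 to 5476 when single libraries were left out. Members that fell numbered 21, and 15 to 19 when single libraries were left out. Those that rose numbered 4, and 3 to 4. The median log2 difference of the glycosidases was -0.31, and -0.59 at the filter of 5 FPKM, which removes low members. In fits without single libraries it was -0.36 to -0.27, that of the cathepsins -0.39 to -0.17 and that of the proton pump -0.43 to -0.30. Of the 25 called members 17 passed in every alternative that tested them (14 lower, 3 higher), and none reversed. Of the 22 uncalled members 16 passed in no alternative. Same-numbered libraries did not visibly deviate together (correlations of -0.103, 0.043 and -0.055), and other pairs ran from -0.071 to 0.108. With 3 libraries per group, this check cannot exclude that the numbers pair them. With the replicate block 17 members fell, 4 rose and 4596 genes passed. Gla, Gusb, Ids, Psap and Atp6v1h then lost their calls (adjusted p = 0.0548, 0.0542, 0.077, 0.0711 and 0.0679), and Asah1 gained one (0.0177). Pseudocounts of 0.1 and 0.01 left both member counts at 21 and 4. Scaling changed the median of all genes to between -0.01 and 0.00. FPKM carries no counting error, so precision at low levels such as Gla and Idua rests on 3 libraries a group.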
